A study of Homo sapiens and Mus musculus with 7 samples.

Results

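KAP1 knockdown was set against control in cells of HEL, a line from a human erythroleukaemia, kept without the activating agent hemin. The comparison was chosen by its labels and takes 2 of the 7 samples of the series, with 1 library a side. It covers 14919 genes, each represented by its RefSeq transcript with the highest mean value, and 10878 of them reached a floor of 5 scaled TPM in at least 1 of these 2 libraries. Scaled TPM is a level per transcript length, made comparable between libraries as described with the processing, and every level below is in this unit.

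The knockdown group carries the genotype KAP1 KD and the control group KAP1 WT, both not activated, both cultured in RPMI medium and sequenced from 250 ng of total RNA with a TruSeq RNA kit. How KAP1 was knocked down, and whether a clone or a pool was used, is not stated in the labels used here. The table heads its control columns Ctrl, and they were taken as the KAP1 WT cells because WT is the one other genotype among the HEL samples. A second pair, KAP1 KD and KAP1 WT after hemin at 50 µM for 5 days, shares no library with the first and is given beside it. The remaining 3 samples are chromatin libraries of mouse erythroid cells and were not used here.

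KAP1, the product of TRIM28, is a corepressor without sequence specificity of its own. KRAB zinc finger proteins bring it to DNA, where it recruits the histone methyltransferase SETDB1, the NuRD deacetylase complex and heterochromatin protein 1. It is best known for silencing transposable elements and for acting at imprinted regions, and in blood it has been studied in red cell formation. HEL cells carry features of the erythroid and the megakaryocytic lineage.

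With 1 library per group no test between the conditions exists. Each difference below describes these 2 libraries, and the spread between cultures is unknown. A log2 ratio is the log2 of scaled TPM plus 0.5 in the knockdown minus the same in the control. A counting interval is the exact conditional binomial 95% interval on the reads, without the 0.5, so the ratio of a gene with few reads may fall beyond it. It covers counting error only, since there is 1 library per group. The reads carry no molecular identifiers, so copies of 1 molecule cannot be told from separate molecules. The knockdown library held 24025056 reads on the chosen transcripts and the control library 34221040, and a counting interval spanned 0.25 on the log2 scale at the median.

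TRIM28 itself was at 316.9 in the knockdown and 421 in the control, a log2 ratio of -0.41, and at -1.07 in the pair with hemin. Its row is 1 of 5 deposited as whole numbers, so its reads are unknown and as a check of the knockdown it carries little weight. The row was scaled like all others, although whether whole-number rows carry sequencing depth is not known. Leaving out the rescaling moves the median of all genes without hemin by -0.58, and would lower this TRIM28 ratio too. The genes that mark the line were present in both libraries. The fetal globin gene HBG1 was at 5915 and 5611 and the master erythroid factor GATA1 at 358 and 314, knockdown first. The megakaryocyte integrin chains ITGA2B (1107 and 1989) and ITGB3 (343 and 204) were also present in both. Markers of other cell types were also read. Of 8 measured epithelial markers 3 reached the floor, with a summed level of 37.6 against 60.0. Of 13 fibroblast and endothelial markers 9 did, with a sum of 2081 against 1624, led by ESAM and VIM, and 2 were at least 2-fold higher (CDH5 and COL6A1), where 6.7% of all genes at the floor were. Of 14 T, NK and B cell markers 9 did, with a sum of 328 against 374, and 4 were at least 2-fold lower (GNLY, CD79A, CD4 and PRF1), where 6.44% of all genes were.

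Across the 10878 genes, 729 were at least 2-fold higher in the knockdown (6.7% of them) and 701 at least 2-fold lower (6.44%). The median log2 ratio was 0.03, and the middle of the distribution, from its lower to its upper quartile, ran from -0.39 to 0.43. Differences of at least 8-fold were on the lower side in 27 genes and on the higher side in 7. The counting interval lay wholly above 2-fold for 513 genes (4.72%) and wholly below for 503 (4.63%). The split of directions depends on the scaling: plain library totals, which move the median of all genes by 0.11, gave 959 higher and 521 lower, and the table without any rescaling, which moves it by -0.58, gave 146 and 2449.

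**Figure D1:**
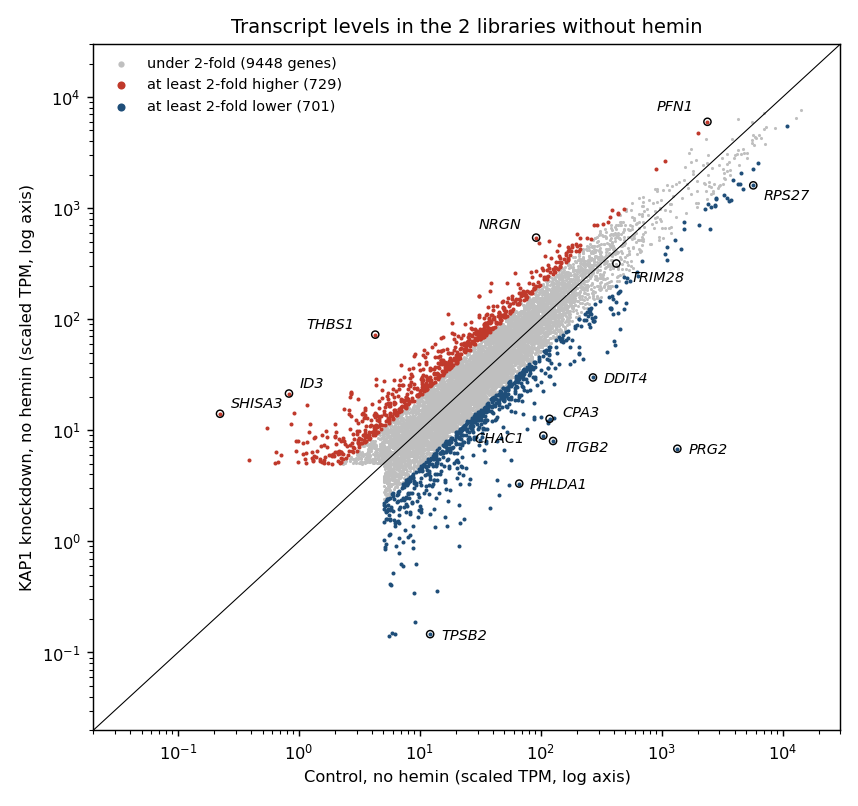
Level of each gene at the floor in the control (x axis) and in the KAP1 knockdown (y axis) without hemin, in scaled TPM on log axes, with 1 point per gene and the diagonal as equal levels. Of the points 729 lie at least 2-fold above and 701 at least 2-fold below the diagonal, and PRG2 lies furthest from it, at 6.82 against 1345.

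The gene with the largest ratio was a granule gene. PRG2 (NM_002728), which encodes the major basic protein of eosinophil granules, had 70 reads in the knockdown and 18753 in the control. Its level was 6.82 against 1345, a log2 ratio of -7.52 with a counting interval of -7.98 to -7.29. The pair with hemin gave -5.87. ITGB2 (NM_000211), the beta chain shared by the leukocyte integrins, was at 8.01 against 126, with 280 and 5995 reads and a log2 ratio of -3.90, and at -4.81 with hemin. Large losses were not limited to such genes: by the bound of the counting interval ADCYAP1, a neuropeptide gene with 7 reads against 457, KIAA1274, C11orf9 and PHLDA1 were among them. Gains of similar size were those of SHISA3, ID3 and THBS1, with log2 ratios of 4.33, 4.05 and 3.94.

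Of the list of eosinophil, basophil and mast cell genes, 22 were measured and 17 reached the floor. Among the 17, 12 were past 2-fold lower and 0 past 2-fold higher, against 6.44% and 6.7% of all genes. Their median log2 ratio was -1.22, and -1.15 in the pair with hemin. Mast cell proteases had the lowest ratios after PRG2: CPA3, carboxypeptidase A3, was at 12.7 against 118, and the tryptase gene TPSAB1 at 0.36 against 13.8. TPSB2, a near-identical tryptase gene, had 2 reads against 226, a counting interval of -9.43 to -4.51, and the authors' counting could have split reads between the tryptase genes. IL1RL1, the receptor for interleukin 33, was at 3.32 against 21.6, and the leukotriene enzyme ALOX5 at 6.66 against 34.1.

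Other genes of the same lineage differed less than the proteases. The chains of the high-affinity IgE receptor, FCER1A (660 against 1070), FCER1G (105 against 197) and MS4A2 (5.47 against 11.7), had log2 ratios of -0.70, -0.90 and -1.03. HDC, the histamine-forming enzyme, was at 656 against 1148, and the transcription factor gene GATA2 at 472 against 794. The leukotriene C4 synthase gene LTC4S was the exception at the floor, at 55.0 against 51.6. KIT, the stem cell factor receptor, was at 13.7 against 32.7, and its log2 ratio of -1.22 was -2.27 with hemin.

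The monocyte and macrophage list had 13 of 20 measured genes at the floor. Of these 8 (61.5%) were past 2-fold lower and 0 past 2-fold higher, against 6.44% and 6.7% of all genes. The median of its log2 ratios was -1.34, and -0.98 after hemin. APOE, the lipid carrier of macrophages, was at 12.9 against 130, and the neighbouring apolipoprotein gene APOC1 at 44.2 against 223. The Fc receptor FCGR2A was at 41.9 against 189, and CSF2RB, the shared receptor chain for GM-CSF, interleukin 3 and interleukin 5, at 103 against 263. SPI1, which encodes the myeloid factor PU.1, was at 107 against 149, a log2 ratio of -0.47. AIF1 and LST1 lay on the other side, with log2 ratios of 0.29 and 0.23. CD14, the lipopolysaccharide coreceptor that defines monocytes, was under the floor in both libraries at 0.11 and 0.37.

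**Figure D2:**
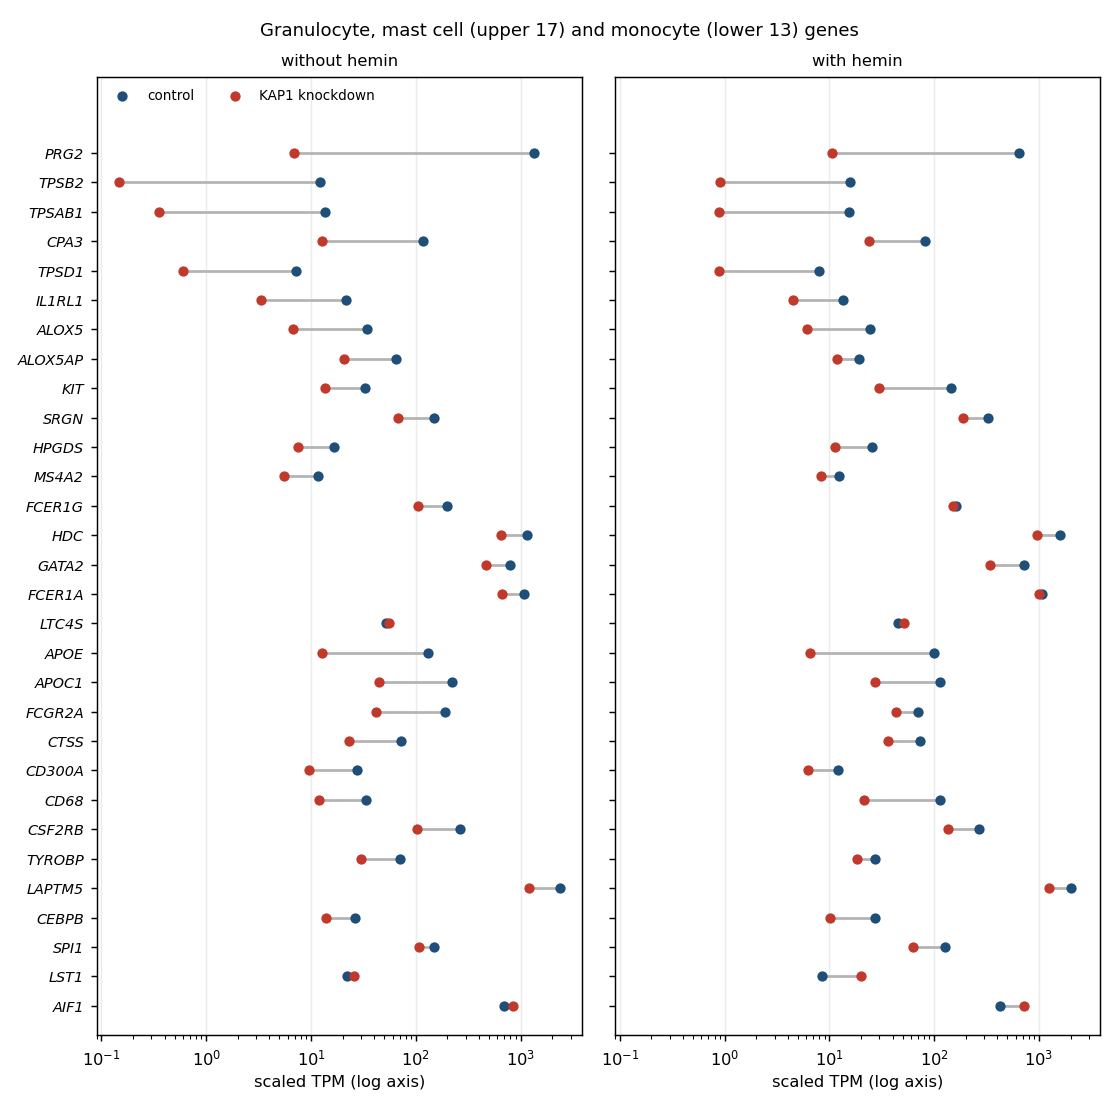
Levels in scaled TPM (x axis, log) of the 17 eosinophil, basophil and mast cell genes and the 13 monocyte and macrophage genes at the floor (y axis), with red points for the KAP1 knockdown and blue points for the control, without hemin on the left and with hemin on the right. The red point lies to the left for 16 of 17 and for 11 of 13 genes without hemin.

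In bulk RNA, fewer cells of a type in the culture and less of its RNA per cell cannot be told apart. Other leukocyte lists were mixed, where 6.44% of all genes were at least 2-fold lower. Of 7 neutrophil granule and oxidase genes at the floor 1 was at least 2-fold lower, MS4A3 at 160 against 388, while LYZ was at 51.7 against 47.0. In the MHC class II list 3 of 6 genes were at least 2-fold lower: the invariant chain CD74 (84.3 against 256), HLA-DRA (10.8 against 26.9) and the class II transactivator CIITA (2.63 against 6.51). HLA-DPA1, at 128 against 126, was nearly level. The killer cell granule gene GNLY was at 1.47 against 21.6, a log2 ratio of -3.49, but 0.36 in the pair with hemin.

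Promoter sequence was examined for part of these genes, with the RefSeq promoter table of build GRCh38.p14, which holds 250 bases before and 50 after each start. AGATAA, the letters of a GATA site, was searched on both strands. It occurred in 5 of the 11 mast cell list promoters in the table (45.5%), in 10.5% of all 27305 promoters and in 5.01% of the promoters of genes at the floor. CPA3 is shown because it is among the lower genes and holds the letters 2 times, the nearer match beginning 45 bases before the start. The stretch is chr3:148865046-148865295 on the plus strand, 5′ to 3′, with the match in capitals.
CPA3: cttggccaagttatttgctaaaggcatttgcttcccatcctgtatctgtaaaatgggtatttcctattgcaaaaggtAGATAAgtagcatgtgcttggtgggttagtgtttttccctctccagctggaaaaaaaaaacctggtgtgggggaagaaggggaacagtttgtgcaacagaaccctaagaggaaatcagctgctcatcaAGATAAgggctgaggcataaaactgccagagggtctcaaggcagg

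Genes of adhesion and of secreted matrix factors moved in both directions. THBS1 (NM_003246), thrombospondin 1, an adhesive protein stored in platelet granules, had 4963 reads in the knockdown and 397 in the control. Its level was 72.6 against 4.28, a log2 ratio of 3.94 with a counting interval of 3.94 to 4.24, and 5.30 in the pair with hemin. In the list of matricellular genes 5 of 10 at the floor passed 2-fold upward and 0 downward, against 6.7% and 6.44% of all genes. The median of this list was 0.91, and 0.41 with a floor of 1. NOV (CCN3), a secreted matricellular regulator, was at 14.4 against 0.92 and the collagen-binding SPARC at 44.8 against 18.97. THBS1 and NOV were under the floor of 5 in the control and entered the count through the knockdown. The insulin-like growth factor binding proteins differed among themselves: IGFBP5 was at 356 against 121 and IGFBP2 at 308 against 114, but IGFBP4 at 23.0 against 33.5.

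Among 14 integrin subunits at the floor 2 were at least 2-fold lower, ITGB2 and the lymphocyte chain ITGB7 (8.28 against 21.9), and 0 higher. The 2 are 14.3% of them, where 6.44% of all genes were lower. ICAM1, a ligand of the ITGB2 integrins, was at 3.54 against 43.1. The integrin-linked kinase ILK (212 against 80.3) and FERMT3, a blood cell activator of integrins (883 against 431), were higher. Actomyosin genes had 7 of 29 at least 2-fold higher (24.1%, against 6.7% of all genes) and 0 lower. Their median of 0.58 became -0.004 in the table without rescaling. MYL9, a myosin light chain of contractile cells, was at 46.2 against 8.95, and the actin crosslinker ACTN1 at 373 against 140. Profilin, PFN1, at 5981 against 2385, had the largest gain in level of all genes.

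The platelet list as a whole was nearly centred. Of its 26 genes at this level 3 were at least 2-fold higher and 2 lower. These are 11.5% and 7.69%, against 6.7% and 6.44% of all genes. The median was -0.18, against 0.70 in the pair with hemin. The 3 higher genes were THBS1, TREML1, a platelet granule membrane protein at 91.6 against 18.5, and the platelet receptor CLEC1B, with 3 reads in the control and a counting interval of 2.13 to 6.16. The 2 lower genes were CD9 (4.32 against 15.0) and PPBP (2.28 against 6.52). ITGA2B had a log2 ratio of -0.85 without hemin and -0.03 with it.

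Genes of cell division were higher as a group. Of 49 mitosis and spindle genes at the floor 25 were past 2-fold higher (51.0%, against 6.7% of all genes) and 0 past 2-fold lower. The median log2 ratio was 1.02, with 1.40 after hemin. The outer kinetochore gene SPC24 was at 69.4 against 15.5, the spindle gene DLGAP5 at 56.4 against 12.7, the mitotic kinase PLK1 at 130 against 40.4 and cyclin B1, CCNB1, at 83.7 against 26.6. The members were not uniform. CDK1, the kinase that partners cyclin B, was at 41.7 against 57.6, a log2 ratio of -0.46, and at 1.02 in the pair with hemin, and ECT2 (-0.25) and BUB3 (-0.01) were also below 0.

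The DNA replication list had 16 of 43 genes at least 2-fold higher (37.2%, against 6.7% of all genes) and 0 lower. Its median was 0.87, and 1.03 with hemin. The polymerase subunits POLE2 (20.4 against 6.57) and POLD1 (129 against 48.4) and the origin recognition gene ORC1 (39.3 against 15.1) had the highest ratios, and ORC2 and ORC3 had -0.28 and -0.16. Among 23 genes of the step from G1 into S phase 4 were at least 2-fold higher (17.4%). MYCN was at 48.0 against 10.6 and E2F1 at 73.6 against 34.1, while MYC was at 583 against 456, a log2 ratio of 0.35 that was -0.79 with hemin. The cyclin-dependent kinase phosphatase CDKN3 was at 60.2 against 13.2.

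The promoters of the mitosis list were searched for CCAAT, the letters bound by the NF-Y factor, and for TTTGAA, the core of the cell cycle homology region, on both strands. CCAAT occurred in 31 of 43 promoters in the table (72.1%, against 37.4% of promoters of genes at the floor and 35.7% of all) and TTTGAA in 32 of 43 (74.4%, against 9.57% and 15.4%). Both occurred in 24, with the letters overlapping in 2 promoters. Among the 21 with a 2-fold higher level 16 held CCAAT and 13 held TTTGAA. Set against 31 and 32 of the 43, that is a slightly larger share for CCAAT and a smaller one for TTTGAA. Over the replication list, TTTCCCGC and TTTGGCGC, both forms of an E2F site, occurred in 9 and 5 of 36 promoters (25% and 13.9%, against 2.68% and 1.12% of promoters of genes at the floor and 1.66% and 0.66% of all), with no promoter holding both. A match is a description of the letters in this window. CCNB1 (chr5:69166900-69167149, plus strand) and PLK1 (chr16:23678639-23678888, plus strand) are shown because they are the kinase and cyclin genes named above that differ in these letters. Capitals mark CCAAT in both and, nearest the start in PLK1, TTTGAA.
CCNB1: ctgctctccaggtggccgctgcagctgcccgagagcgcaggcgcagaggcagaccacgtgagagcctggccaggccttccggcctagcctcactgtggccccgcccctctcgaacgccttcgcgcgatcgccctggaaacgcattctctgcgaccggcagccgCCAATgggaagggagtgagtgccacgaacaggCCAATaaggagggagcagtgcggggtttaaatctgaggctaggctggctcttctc
PLK1: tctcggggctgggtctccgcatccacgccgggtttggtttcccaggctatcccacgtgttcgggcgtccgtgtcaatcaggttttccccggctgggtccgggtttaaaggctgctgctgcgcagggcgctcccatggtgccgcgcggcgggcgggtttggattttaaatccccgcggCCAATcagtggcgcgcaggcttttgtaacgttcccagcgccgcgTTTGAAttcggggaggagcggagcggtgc

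Clustered histone genes were higher in the knockdown: 25 of the 29 at the floor passed 2-fold upward and 0 downward. Of all genes 6.7% and 6.44% did. The 3 H3 genes at the floor and the 3 H4 genes past 2-fold were under the floor of 5 in the control. They entered the count through the knockdown, which favours a higher ratio. So did some H2A and H2B genes, such as HIST1H2AK (0.95 in the control) and HIST1H2BC (1.14). All 9 H2A genes were past 2-fold, with a median of 1.90, and 9 of 11 H2B genes, with a median of 1.71. HIST2H2AC was at 48.3 against 9.04, HIST1H3H at 20.0 against 2.65, HIST1H4H at 25.7 against 4.36 and the linker histone HIST1H1C at 110 against 17.2. HIST2H2AA3 and HIST2H2AA4 are copies with the same deposited values, and so are HIST2H3A and HIST2H3C. The same holds for HIST2H4A and HIST2H4B, which had a log2 ratio of -0.28. The count of 29 takes both genes of each such pair. The replacement linker histone gene H1F0 was lower, at 246 against 640. Together clustered histone genes took 0.135% of the scaled TPM of the knockdown library and 0.0405% of the control, with 0.161% and 0.0588% in the pair with hemin. In that pair 6 of 9 H2A, 6 of 12 H2B, 1 of 3 H3 and 0 of 5 H4 genes passed 2-fold upward, where 6% of all genes did. Their medians there were 1.91, 1.06, 0.59 and 0.72.

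Several library properties lay beside the histone genes. Their transcripts are short and mostly lack a poly-A tail. Of 6 other RNAs without such a tail 1 was at least 2-fold higher and 2 lower, and ribosomal RNA rows held 0.79% of the reads in the knockdown and 0.916% in the control. With hemin 5 of the 6 were past 2-fold higher (6% of all genes were) and 0 lower, and the median went from -0.17 to 1.77. That list leaves out RN5-8S1 and BCYRN1, which had -2.48 and -1.36 without hemin. The log2 ratio also fell with transcript length over all genes, from a median of 0.26 in the shortest of 5 equal length classes (126 to 1494 nt) to -0.19 in the longest (4601 to 21283 nt), and 13.5% of the shortest against 2.44% of the longest were at least 2-fold higher. In the pair with hemin the same medians were 0.14 and -0.06. With the length trend removed the H2A median was 1.64, the H2B median 1.51 and the mitosis median 1.04. The part of poly-A selection in the histone values was not tested.

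**Figure D3:**
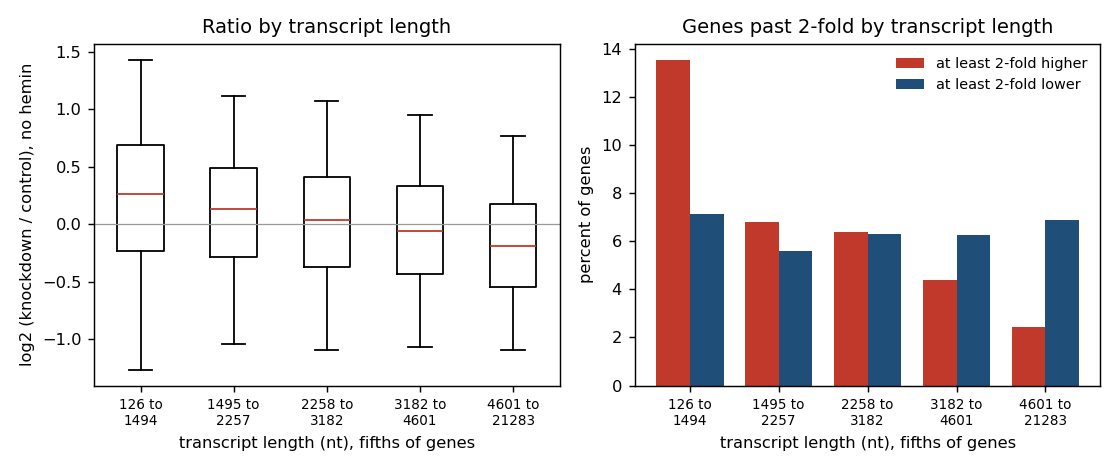
Log2 ratio of knockdown over control without hemin by 5 equal classes of transcript length in nt (left, with boxes from the lower to the upper quartile, the median in red and whiskers to the 5th and 95th percentile) and the percent of genes of each class past 2-fold (right, red higher, blue lower). The share of higher genes drops from 13.5% to 2.44% over the classes, while the share of lower genes stays between 5.61% and 7.13%.

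Genes that cells switch on when amino acids run short were lower in the knockdown. In this response, kinases of the eIF2 family slow general translation and raise the translation of ATF4, which activates genes of amino acid synthesis, uptake and tRNA charging. The 4 lists of this system had 82 genes at the floor, of which 32 were past 2-fold lower and 6 past 2-fold higher. Of all genes 6.44% and 6.7% were. ATF4 itself was at 542 against 1018, a log2 ratio of -0.91, and -1.30 with hemin.

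Of 20 genes of the ATF4 arm 8 were at least 2-fold lower and 0 higher, with a median of -0.82, and -1.19 with hemin. CHAC1, which degrades glutathione, was at 8.96 against 105, and DDIT4, an inhibitor of mTORC1, at 29.9 against 270. The bZIP gene ATF3 was at 2.94 against 16.4 and the pseudokinase TRIB3 at 20.0 against 65.4. DDIT3, which encodes CHOP, had -0.43 without hemin and -1.66 with it. Another DDIT3 transcript at the floor, NM_001195056, had -1.54 and -0.99. The upstream kinase genes EIF2AK2, EIF2AK3 and EIF2AK4 lay on the other side, between 0.40 and 0.46, and the haem-regulated kinase gene EIF2AK1 was at -0.26.

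Amino acid synthesis had 12 of 21 genes at least 2-fold lower and 3 higher, with a median of -1.09. Asparagine synthetase, ASNS, was at 5.43 against 57.2, and the transsulfuration enzyme CBS at 58.8 against 411. The serine pathway was lower along its length: PHGDH was at 181 against 455, PSAT1 at 63.4 against 403 and PSPH at 19.2 against 54.5. SHMT1, the cytosolic serine hydroxymethyltransferase, was higher at 25.9 against 10.3, as were the argininosuccinate lyase ASL (59.4 against 23.6) and ALDH18A1, of proline synthesis (115 against 55.3).

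Amino acid transporters had 7 of 18 lower and 3 higher past 2-fold. The cystine carrier SLC7A11 was at 9.61 against 52.5, and the subunits of the large neutral amino acid carrier, SLC7A5 and SLC3A2, were at 140 against 510 and at 123 against 382. SLC38A5 was at 73.1 against 25.2. Of 23 cytosolic tRNA synthetase genes 5 were lower, WARS, GARS, IARS, NARS and CARS, and 0 higher. WARS, for tryptophan, was at 124 against 484, while VARS, for valine, had 0.98. In the pair with hemin, 12, 4, 4 and 4 genes of the ATF4 arm, synthesis, transporter and synthetase lists were at least 2-fold lower, where 4.13% of all genes were.

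**Figure D4:**
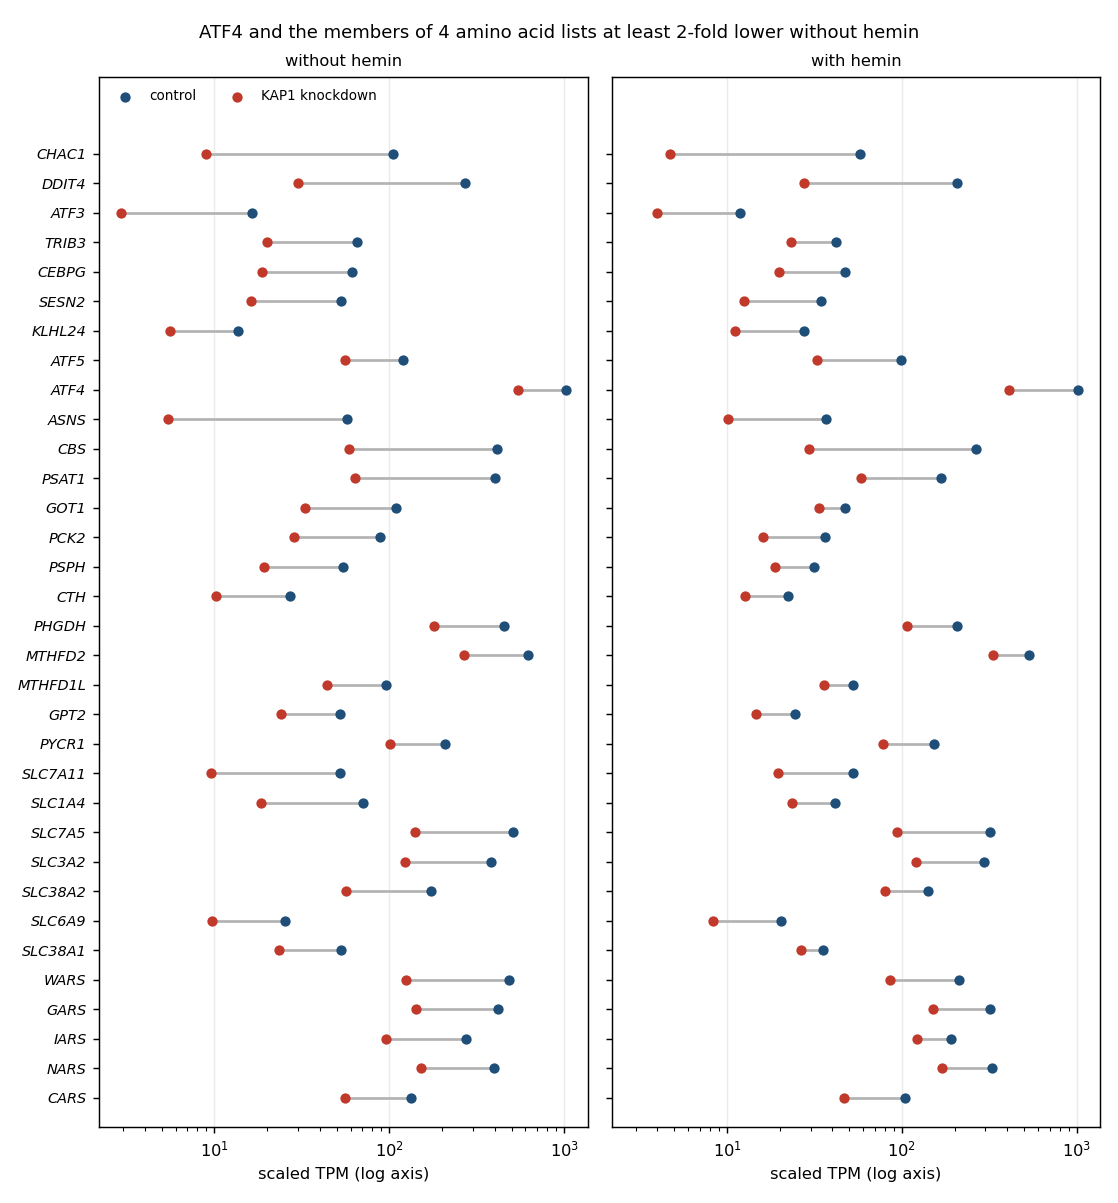
Levels in scaled TPM (x axis, log) of ATF4 and of the members of the 4 amino acid lists that were at least 2-fold lower without hemin (y axis), with red points for the KAP1 knockdown and blue points for the control, without hemin on the left and with hemin on the right. Without hemin the red point lies left of the blue by choice of the genes, and for CHAC1 it is at 8.96 against 105.

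TGATGNAA, the core letters of the composite site of C/EBP and ATF factors, was searched on both strands in the promoters of the 4 lists. It occurred in 15 of 67 promoters (22.4%), against 1.65% of promoters of genes at the floor and 3.67% of all. Of the 28 promoters of genes at least 2-fold lower 10 held it, and of the 39 others 5. CHAC1 and ASNS are shown because they hold it and lead their lists. The match begins 209 bases before the start in CHAC1 (chr15:40953221-40953470, plus strand), where it reads on the opposite strand, and 68 bases before it in ASNS (chr7:97872409-97872658, minus strand). Capitals mark the match.
CHAC1: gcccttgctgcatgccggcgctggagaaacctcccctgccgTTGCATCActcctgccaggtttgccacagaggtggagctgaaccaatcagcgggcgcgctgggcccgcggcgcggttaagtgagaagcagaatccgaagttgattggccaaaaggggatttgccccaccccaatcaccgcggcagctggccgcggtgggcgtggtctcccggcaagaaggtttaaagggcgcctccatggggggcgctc
ASNS: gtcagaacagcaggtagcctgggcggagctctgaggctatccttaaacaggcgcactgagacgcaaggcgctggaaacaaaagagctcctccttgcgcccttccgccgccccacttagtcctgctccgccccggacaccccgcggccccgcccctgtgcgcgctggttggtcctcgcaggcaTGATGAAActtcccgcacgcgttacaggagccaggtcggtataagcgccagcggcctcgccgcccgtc

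Other stress genes were divided. Of 26 genes of the endoplasmic reticulum 6 were at least 2-fold lower, among them DNAJB9 (5.43 against 20.3) and the disulfide isomerase PDIA3 (220 against 544), but the chaperone HSPA5 was at 363 against 344. The 6 are 23.1% of them, against 6.44% of all genes. In the cytosolic heat shock list HSPA6 was at 1.598 against 23.1 and HSPA7, with which it may share reads, at 1.67 against 15.99, while HSPB1 (179 against 71.7) and HSPE1 (329 against 133) were higher. The median of this list was 0.40, and -0.17 in the table without rescaling. The p53 target list was split as well: BAX was at 241 against 111, but PMAIP1 at 17.5 against 87.6 and BBC3 at 12.1 against 39.7, all of the BCL2 family that governs cell death.

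Ribosomal protein genes, which were among the most abundant, were lower. Of 86 at the floor, 23 were at least 2-fold lower (26.7%, against 6.44% of all genes) and 0 higher. A negative ratio was found in 80, and the median was -0.73 in each pair. With hemin 5 of 86 were at least 2-fold lower, where 4.13% of all genes were. Without hemin RPS27 was at 1602 against 5707 and RPL37 at 429 against 1430, whereas RPL8 was at 4204 against 3776. As a share of all scaled TPM these genes took 17.9% of the knockdown library and 28.1% of the control, and 16.1% and 24.5% with hemin. Many have processed pseudogenes with which reads could be shared. The elongation factor EEF1A1 was at 5443 against 10926. Mitochondrial ribosomal protein genes had 5 of 74 higher (6.76%, near the 6.7% of all genes) and 1 lower past 2-fold, with a median of 0.36, and -0.22 in the table without rescaling.

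Red cell genes had no common direction. The erythroid membrane list had 3 of 24 at least 2-fold higher and 4 lower, with a median of 0.11 that was -0.47 in the table without rescaling. The 3 and the 4 are 12.5% and 16.7%, against 6.7% and 6.44% of all genes. RHCE (210 against 52.1) and RHD (108 against 31.1), the rhesus genes, share sequence and were higher, and the water channel AQP1 (1.36 against 8.83), the erythropoietin receptor EPOR (20.5 against 49.1) and the transferrin receptor TFRC (332 against 687) were lower. The alpha globin genes HBA1 (2662 against 1069) and HBA2 (2225 against 902), near-identical copies, were higher, and HBG2 was at 7215 against 6983. HBB was at 21.1 against 52.7, with a log2 ratio of -1.30 that was 0.38 with hemin. ALAS1, the housekeeping first enzyme of haem synthesis, was at 126 against 373, while the erythroid enzyme ALAS2 was at 32.5 against 38.3.

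Signalling genes near these receptors were lower more often than higher. The median of the JAK-STAT list was -0.56, with 5 of 28 at least 2-fold lower (17.9%, against 6.44% of all genes) and 0 higher. Among them were the cytokine OSM (1.09 against 7.95), the feedback inhibitors SOCS3 (25.3 against 69.4) and SOCS1 (10.4 against 21.7), and EPOR. Of 15 ephrin and MAP kinase feedback genes 3 were past 2-fold lower and 0 higher: DUSP6 at 24.4 against 71.4, ETV5 at 34.6 against 99.6 and SPRED1 at 15.0 against 33.7. The 3 are 20% of them, against 6.44% of all genes. PHLDA1, a gene with a pleckstrin homology-like domain, had 230 reads against 6252 and a log2 ratio of -4.13. The fibroblast growth factor receptor FGFR3 was at 13.1 against 101, and the ephrin receptor EPHB1 in the other direction, at 21.2 against 2.71.

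Genes connected with KAP1 function were examined too. All 33 genes of the KAP1 partner list reached the floor, 3 passed 2-fold upward (9.09%, against 6.7% of all genes) and 0 downward, and the median was 0.21, or -0.37 in the table without rescaling. The 3 were the DNA methyltransferase DNMT3B (156 against 53.8), UHRF1, which guides maintenance methylation (60.2 against 21.7), and the methyltransferase SUV39H1 (22.5 against 10.1). SETDB1 was at 27.9 against 39.8. Of 320 genes with ZNF symbols at the floor, many of them KRAB zinc finger genes, 5 passed 2-fold upward and 22 downward, with a median of -0.31. The 22 are 6.88% of them, near the 6.44% of all genes, and the 5 are 1.56%, below the 6.7% of all genes. ZNF385D was at 28.5 against 6.05 and ZNF853 at 0.95 against 5.20. Of 16 imprinted genes at the floor, 0 passed 2-fold in either direction, where 6.7% of all genes passed upward and 6.44% downward. With 16 genes a count of 0 is near these shares. None of 18 measured protocadherin genes reached the floor.

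Genes of other tissues went both ways, where 6.7% of all genes were past 2-fold higher and 6.44% past 2-fold lower. Of 7 germline genes at the floor 2 were past 2-fold higher and 1 lower (SPAG6, at 4.37 against 10.4), with a median of -0.02. Of 15 neuronal genes 5 were higher and 2 lower, among them the syntaxin gene STX1A (1.83 against 8.36), with a median of 0.19 that was -0.47 in the table without rescaling. Of 23 measured olfactory receptor genes 4 reached the floor, all past 2-fold higher, and the median of 2.08 became -0.13 with a floor of 1. OR2T8 and OR2T33, given below, were under the floor of 5 in the control and entered this count through the knockdown, which favours a higher ratio. Among the genes with the highest ratios, SHISA3, of the endoplasmic reticulum, had 326 reads against 7 and a log2 ratio of 4.33, but was under the floor in the pair with hemin. ID3, an inhibitor of helix-loop-helix factors and a target of BMP signalling, was at 21.4 against 0.83. The actin-like testis gene ACTL8 was at 17.04 against 1.16, and KBTBD12 at 10.4 against 0.55. The neuronal calmodulin regulator NRGN was already abundant in the control and was at 542 against 91.5. The retinal gene RD3 was at 21.9 against 2.72 and the synaptic scaffold GRIP1 at 27.8 against 5.05. The olfactory receptor genes OR2T8 (11.4 against 0.87) and OR2T33 (7.96 against 0.98) are close relatives that may share reads. HOXD1, at 8.04 against 0.94, had a log2 ratio of 2.56 without hemin and -0.13 with it.

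**Figure D5:**
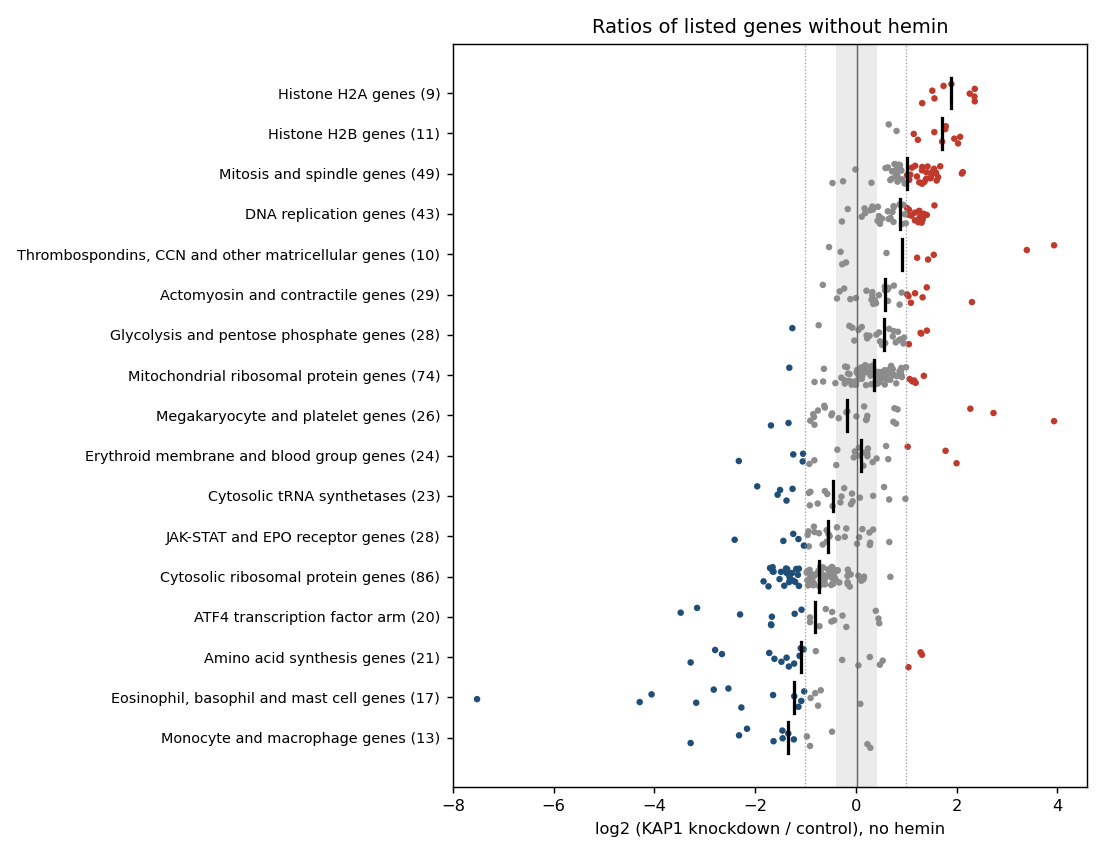
Log2 ratio of knockdown over control without hemin (x axis) for each gene at the floor of 17 lists (y axis, number of genes in parentheses), with red points at least 2-fold higher, blue points at least 2-fold lower, black bars for list medians, and the grey band from the lower to the upper quartile of all genes. The medians run from 1.90 for H2A genes to -1.34 for monocyte and macrophage genes.

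Most of these differences had the same direction in the pair with hemin. Of 682 genes at least 2-fold higher without hemin and at the floor in both pairs, 651 had a positive ratio with hemin and 294 were again at least 2-fold higher, where 6% of all genes were. Of 657 lower genes 604 had a negative ratio with hemin and 221 were again at least 2-fold lower, where 4.13% of all genes were. Both pairs set the same 2 kinds of cells against each other, so a feature of these cells other than KAP1 could appear in each pair.

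The table is per transcript, and transcripts of 1 gene could be set side by side for 4104 genes with at least 2 at the floor. In 49 of them the ratios of 2 transcripts differed by at least 2-fold, and in 47 the counting intervals lay apart. RCC1, the exchange factor of the RAN GTPase, was the gene with 1 transcript at least 2-fold higher and another at least 2-fold lower: NM_001048195 was at 9.96 against 3.65 and NM_001048199 at 6.24 against 15.4. With hemin their log2 ratios were 1.24 and 0.15. FEZ1, a neuronal transport adaptor, had NM_005103 at 190.5 against 88.9 and NM_022549 at 9.88 against 13.3, with 1.05 and -0.18 with hemin. Transcripts of a gene overlap, and how reads in shared exons were counted is not stated.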

How the data were processed

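RNA was sequenced from 4 groups of HEL cells with 1 library each, 2 of which make up this comparison. The table deposited by the authors holds RPKM for 24538 rows of RefSeq transcripts, as its header says. The submitters' processing notes name Bowtie and hg19, without a role, and the counting method is not stated in the labels used here. No value was 0, so transcripts without reads in a library may be missing from the table and from every count.

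The deposited RPKM values carried sequencing depth, although the design had assumed that they did not. Within a row they were whole multiples of 1 step after division by a factor per library, and reads were recovered for 24532 of 24533 rows without whole numbers (tolerance 0.0002 reads plus 4e-09 of the value). Another 5 rows held whole numbers and have no reads or interval. The transcript with the highest mean over the 4 libraries stood for each gene, and a transcript listed under several symbols was used once. Values were divided by the value of 1 read and by reads times a trimmed mean of M values factor (trims 0.3 and 0.05; factors 1.01 for the knockdown, 0.964 for the control), which makes levels relative to the library as a whole. Python 3.11.15, numpy 2.4.6, pandas 2.3.3 and scipy 1.17.1 were used, and the scripts were tested on simulated data. A pseudocount of 0.5, a floor of 5 and limits of 2-fold were used.

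Named genes were the 15 with the largest bound of the counting interval each way, up to 4 of each list by size of ratio with members that define it, TRIM28, PRG2, ITGB2 and THBS1, and the 10 largest gains and losses in level. Further genes were named to show the spread within a list and were chosen after their values were seen, as were the transcripts of RCC1 and FEZ1. The members and gene lists were chosen with earlier results of these data known. No test was run. The alternatives were other scalings, pseudocounts, floors, choices of transcript and a correction for transcript length. Promoter letters were searched in the RefSeq windows, which covered 8769 of the genes at the floor. Mouse chromatin files were not used here. The values of 2 list members are not reported here.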

Additional observations from a re-analysis of the deposited data

Results flagged for a closer look

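In 8 genes the knockdown was at least 2-fold higher than the control in one activation state and at least 2-fold lower in the other. The difference between the states was not tested, and each value rests on 1 library a side. RN5-8S1, a ribosomal RNA, had a log2 ratio of -2.48 without hemin and 2.76 with it. Other RNAs without a poly-A tail were SNORA73B (-1.47 and 1.62), RMRP (-1.47 and 1.76) and BCYRN1 (-1.36 and 1.24). The platelet chemokine gene PPBP had -1.34 and 2.01, and the chemokine receptor gene CCR4 -1.23 and 1.10. PIR had 1.32 and -1.13, and the ribosomal protein pseudogene RPL13AP6 1.39 and -1.05. RMRP rested on 8 reads in the knockdown without hemin, and PPBP on 35.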

How the results depend on the processing

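The count of 729 genes at least 2-fold higher ranged from 486 to 959 and that of 701 lower from 452 to 958 over the alternatives, apart from the table without rescaling. It carries depth and gave 146 higher and 2449 lower. A floor of 20 gave 486 higher and 452 lower among 7313 genes, fewer genes tested by construction. Plain library totals gave 959 and 521, equal medians 763 and 675, a pseudocount of 0.1 gave 781 and 744, and the sum of all transcripts 785 and 761. With the length trend removed, 634 were higher and 688 lower, of which 568 and 592 were among those of the main setting. Of the 283 named genes 7 turned negative in the table without rescaling, CFL1, GATA1, TAL1, CDKN1B, HBG1, HBG2 and HLA-DPA1, with ratios of at most 0.58 before, and the last 3 also with the length trend removed. No named gene past 2-fold changed sign under any scaling, pseudocount, choice of transcript or length correction. Of 65 list medians 40 changed sign in at least 1 setting, 21 of them in the table without rescaling. List medians past 2-fold that did so were those of olfactory receptor genes, -0.13 with a floor of 1, which adds low genes, and of histone H4 genes, -0.28 with a floor of 20, which leaves 3 of them. The neutrophil median went from -0.31 to 0.03 with a floor of 1 and the MHC class II median from -0.59 to 0.003. No paired analysis was possible because each group is 1 library, and no replicate could be left out. Depth limits the lowest genes: TPSB2 had 2 reads in the knockdown.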

Other observations

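Energy metabolism and a few further groups are given here as values. Of 28 glycolysis and pentose phosphate genes at the floor, 4 were past 2-fold higher: GPI (446 against 167), LDHA (444 against 180), the lactate carrier SLC16A3 (396 against 162) and PFKP (352 against 169), while the glucose carrier SLC2A3 was lower at 98.7 against 237. The 4 higher genes are 14.3% of the list, against 6.7% of all genes. Its median log2 ratio was 0.55, and -0.03 in the table without rescaling. TXNIP, which binds thioredoxin and limits glucose uptake, was at 209.5 against 38.7. In the interferon list 5 of 35 were at least 2-fold lower, with XAF1 at 2.92 against 17.7 and BST2 at 8.40 against 24.9, and 1 higher, IFI44 at 41.0 against 20.2. The 5 are 14.3% of them, against 6.44% of all genes. The microRNA host genes MIR17HG (1.38 against 6.22) and MIR22HG (4.08 against 13.9) were lower. By chromosome, the median log2 ratio was highest on chromosome 19 at 0.22, where the pair with hemin had -0.08, and lowest on chromosome 18 at -0.17, where it had -0.03.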
